A study of Mus musculus with 37 samples.

Results

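Csf2, Csf3 and Lif encode secreted cytokines, and their transcripts were followed here across 5 mouse myeloid cell types given IL-10, LPS or both. The 3 genes were taken by name from a deposited table, read here in a copy with part of the transcripts and 6509 genes, in which they hold 5 of 16993 transcripts (1 of Csf2, 1 of Csf3 and 3 of Lif). All 3 were present, and each had a value in every group. Csf2 encodes GM-CSF, a growth and survival factor for granulocytes, macrophages and dendritic cells. Csf3 encodes G-CSF, which drives the production and release of neutrophils. Lif encodes leukaemia inhibitory factor, a member of the IL-6 family that signals through gp130 to STAT3, the transducer that IL-10 also uses. LPS, the bacterial endotoxin read by Toll-like receptor 4, is a known inducer of such cytokines in myeloid cells, and their mRNAs are known for short half-lives set by AU-rich letters near the 3′ end.

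The cells came from C57Bl6cJ mice and were thioglycollate-elicited macrophages of the peritoneum that adhered to plastic, neutrophils of the bone marrow, dendritic cells enriched from spleen with magnetic beads (sDCs), and bone marrow cultures of eosinophils and of mast cells. They were left untreated or received IL-10 at 100 ng/ml for 4 h, LPS at 100 ng/ml for 4 h, or IL-10 for 4 h and then LPS for a further 4 h. No eosinophil group received IL-10, which left 18 groups of 2 libraries each. The treatment durations do not show whether all groups were harvested at the same time. LPS, IL-10 before LPS and longer culture therefore cannot be told apart. The neutrophils, from pooled mice, had been kept overnight with GM-CSF, the product of Csf2, before fresh medium was given. In the macrophages, 1 library each of the untreated and IL-10 groups is labelled as a re-analysis of an earlier sample, and no such library is in the LPS groups. No genotype other than the strain is given.

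Each deposited value is the authors' mean over the 2 libraries of a group, a GC-normalized tag count per transcript. It carries no SD, so no difference below was tested against the spread between replicates, and depth per library was not analysed here. Gene levels are sums over transcripts. A gene was kept in a cell type where any group there reached 10, log2 changes were taken on log2(value + 1), which understates the change of low genes, and those of 2-fold or more are spoken of as raised, lowered or called. Where a group is listed at 0, both levels are given in place of a fold. The labelled cell types were checked on markers. The summed level of the macrophage list (5 of 10 genes held) was 184102 to 333110 in macrophages and at most 23028 elsewhere, and that of the mast cell list (3 of 10 held) was 274043 to 319244 in mast cells and at most 8807.5 elsewhere. Eosinophil markers (2 of 10 held) summed to 221356 to 231328 in eosinophils but also to 19648 to 23628 in neutrophils. B cell markers (3 of 7 held) summed to 3122 to 4744 in neutrophils and 1504 to 1778.5 in sDCs. They summed to at most 303 in any other cell type, and their part in the levels below was not tested. Neutrophil markers (4 of 10 held) summed to 272850 and 290194 in neutrophils without LPS and to 37120 and 73607 with LPS and with IL-10 then LPS. In sDCs the dendritic list (4 of 10 held) ran from 95737.5 to 189846, nearly all of it Ccr7 (94827 to 185338, the latter the maximum of every column), so the sum rests on that gene. Itgax, another gene of the list, was at 4075.5 in untreated sDCs and 13861 in untreated macrophages. sDCs also carried T cell markers (2 of 10 held) at 16235 to 18269.5, most of it Tcf7. Macrophages also carried stromal markers (6 of 8 held) at 14588 to 20373.5, against at most 41.0 in any other cell type. In bulk samples, fewer cells of a type and less RNA per cell cannot be told apart.

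The 3 genes differed in which cells carried them (see the plot of levels by group). Lif was present in all 18 groups, from 10.5 to 4511 with a median of 109. Csf3 was the most uneven, at 10 or more in 6 groups and listed at 0 in 5. Csf2 was at 10 or more in 8 groups, up to 103.5, and listed at 0 in 4. Per kilobase of transcript, the scale on which genes can be set side by side, the highest levels of the 3 genes were those of Csf3 in neutrophils, at 2295 per kilobase with LPS and 1624 with IL-10 then LPS. The highest level of Lif was 1294 per kilobase, in mast cells with LPS. Csf2 reached 129 per kilobase at most, in sDCs with LPS. With 1 mean per group, whether neighbours in these orders differ beyond their spread cannot be said.

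**Figure D1:**
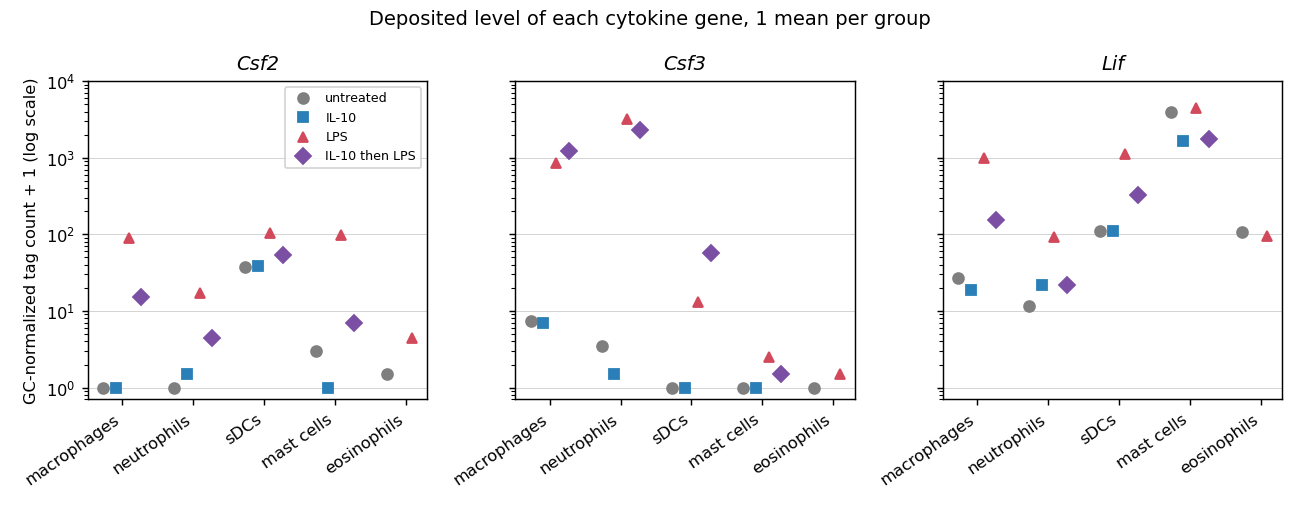
Deposited GC-normalized tag count plus 1 (log axis) of Csf2, Csf3 and Lif in each of the 18 groups, by cell type on the horizontal axis; each point is 1 group mean and has no error. Csf3 stood above 100 only in the macrophage and neutrophil groups given LPS, with or without IL-10, whereas Lif in mast cells was already at 3925 without any treatment.

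All 3 genes lie on chromosome 11 (NCBIM37, the mm9 build of the files, with the GENCODE vM1 annotation). Csf2 (ENSMUSG00000018916) is on the minus strand at 54060773 to 54063169, with 4 exons and a transcript of 800 bases. Csf3 (ENSMUSG00000038067) is on the plus strand at 98562577 to 98564943, with 5 exons and 1413 bases. Lif (ENSMUSG00000034394) is on the plus strand at 4157560 to 4172517. The Lif transcript ENSMUST00000066283 has 4 exons and starts at 4157560, and ENSMUST00000040750 has 3 exons and starts 9538 bases downstream, at 4167098. The third, ENSMUST00000154927, is annotated as non-coding, with 2 exons.

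The 3′ untranslated regions of all 3 genes hold the AU-rich pentamer ATTTA. Csf2 has 9 in 317 bases, or 28.4 per kilobase, a density above that of 99.97% of the 11200 transcripts of the table with an annotated 3′ untranslated region of at least 100 bases. The median of those transcripts was 1.24 per kilobase. Csf3 has 6 in 669 bases (9.0 per kilobase, above 99.0% of them), and Lif has 7 in 3180 bases (2.2 per kilobase, above 68.3%). The longer letters TTATTTATT, which hold an ATTTA, occurred 4 times in Csf2, 2 times in Lif and not in Csf3, and at least once in 6.93% of the transcripts. The 30 bases with the most pentamers are printed for each gene from the reference transcripts, 5′ to 3′ as DNA with each ATTTA in capitals, because they show how the 3 genes differ there:
Csf2: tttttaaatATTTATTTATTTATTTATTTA
Csf3: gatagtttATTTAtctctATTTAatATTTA
Lif: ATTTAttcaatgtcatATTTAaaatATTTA
In Csf2 the 5 pentamers overlap in 1 run, whereas those of Csf3 and Lif stand apart. Such letters are a description of the sequence and were not linked to the levels by any test.

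Csf2 was higher with LPS in the 4 cell types in which it was kept. In macrophages, neutrophils and mast cells it reached the minimum of 10 only in groups given LPS, so its being kept there already required a high level after LPS. In macrophages it was listed at 0 untreated, 0 with IL-10, 89.5 with LPS and 14.0 with IL-10 then LPS. In neutrophils the same 4 groups were at 0, 0.5, 16.0 and 3.5. Both cell types therefore had Csf2 above 10 only after LPS, and less of it where IL-10 came first. Mast cells were at 2.0 untreated, 0 with IL-10, 97.0 with LPS and 6.0 with IL-10 then LPS. The LPS level was 48.5 times the untreated level there, a log2 change of 5.03. sDCs differed in having Csf2 without stimulation, at 37.0 untreated and 38.0 with IL-10, and they reached 103.5 with LPS and 52.5 with IL-10 then LPS. Their log2 change with LPS was 1.46, or 2.8-fold. Eosinophils stayed under the minimum, at 0.5 untreated and 3.5 with LPS. The LPS levels of macrophages, sDCs and mast cells lay within 89.5 to 103.5, while the untreated levels ran from 0 to 37.0. In sDCs, the natural killer marker Klrd1 (the single gene held of 8) was at 1906.5 untreated and 248.0 with LPS, and the T cell list was at 18269.5 and 16475; their part in the Csf2 level was not tested.

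With IL-10 before LPS, Csf2 was at 6.19% of its LPS level in mast cells, 15.6% in macrophages, 21.9% in neutrophils and 50.7% in sDCs. The log2 change in mast cells was -3.81, the second lowest of the 5734 genes kept in these cells. Csf2 reached the minimum there only in the LPS group, the reference of this comparison. The minimum itself favoured a fall, so nothing is read from this rank. The log2 change was -2.59 in macrophages and -1.92 in neutrophils. In neutrophils, too, Csf2 reached the minimum only in the LPS group. The change in sDCs was -0.97 and did not reach 2-fold, although after the columns were rescaled by size factors it did, at -1.02. IL-10 alone was compared at levels of at most 2.0 in macrophages, neutrophils and mast cells, which are too low to read, and in sDCs the log2 change with IL-10 alone was 0.04.

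The 250 bases before the Csf2 start of RefSeq, chr11:54249900-54250149 (GRCm38.p6, minus strand), are shown next to those before its upstream Lif start, chr11:4257318-4257567 (GRCm38.p6, plus strand), because both genes were higher with LPS and lower with IL-10 before LPS in macrophages. They are printed 5′ to 3′ with motif matches in capitals:
Csf2: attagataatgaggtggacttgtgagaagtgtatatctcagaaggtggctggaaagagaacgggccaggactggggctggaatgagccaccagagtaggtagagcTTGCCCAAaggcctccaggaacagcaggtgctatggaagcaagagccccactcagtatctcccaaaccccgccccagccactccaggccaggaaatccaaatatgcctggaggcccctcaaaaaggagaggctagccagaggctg
Lif: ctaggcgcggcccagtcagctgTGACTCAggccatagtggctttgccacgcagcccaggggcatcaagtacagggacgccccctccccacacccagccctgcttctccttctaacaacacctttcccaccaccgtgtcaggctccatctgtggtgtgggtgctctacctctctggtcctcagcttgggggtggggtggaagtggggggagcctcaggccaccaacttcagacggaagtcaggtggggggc
The letters searched on both strands were GGANTTTCC for NF-kB, TGANTCA for AP-1, TTGCNNAA for C/EBP, TTCNNNGAA for STAT and TATAAA for the start box, where N is any base, and no matched stretch overlapped another. Counted from the RefSeq start, Csf2 had 1 match, TTGCCCAA for the C/EBP letters, from base -145 to base -138, and Lif had 1, TGACTCA for the AP-1 letters, from -228 to -222. The Lif window had 1 exact match in NCBIM37, which ended at 4157570, just past the annotated start. Of 32536 RefSeq promoters of this length, 1.07% held the NF-kB letters, 6.73% the AP-1 letters, 7.04% the STAT letters, 9.57% the C/EBP letters and 12.3% the start box. The Csf2 window also had 1 exact match in NCBIM37 and ended 232 bases before the annotated start of the measured transcript. The 250 bases directly before that start held 1 match, TTCTTGGAA for the STAT letters, from base -171 to base -163. In each window, a missing match says only that these exact letters are not there. It does not show that a factor has no site. Csf3 has no entry in the promoter table.

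Csf3 was raised by LPS in macrophages, neutrophils and sDCs, the 3 cell types in which it was kept, and in each it was kept only through groups given LPS. In neutrophils it was at 2.5 untreated, 0.5 with IL-10, 3243 with LPS and 2294.5 with IL-10 then LPS. The LPS level was 1297 times the untreated one, a log2 change of 9.86, second of the 5949 genes kept. In macrophages the levels were 6.5, 6.0, 860.5 and 1210.5 in the same order, and the log2 change with LPS was 6.84, or 132-fold. These were the only cell types with Csf3 above 100, and in both the untreated and IL-10 groups lay under 10. sDCs were listed at 0 untreated and 0 with IL-10, at 12.0 with LPS and at 56.5 with IL-10 then LPS. In mast cells no group passed 1.5, and eosinophils were at 0 and 0.5, so Csf3 was kept in neither.

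IL-10 before LPS did not lower Csf3 by 2-fold in any of these cells. It was at 70.8% of the LPS level in neutrophils (log2 change -0.50), at 141% in macrophages (0.49) and at 471% in sDCs (2.15). Only the sDC change was called, and it was upward, 43rd from the top of 6050 genes kept. It rests on levels of 12.0 and 56.5. In macrophages the stromal marker sum was 20373.5 with LPS and 17213 with IL-10 then LPS, and its part in the Csf3 level was not tested. In sDCs stromal markers summed to 41.0 and 39.5, with 2 of 6 at 0 in both groups. The neutrophil markers of sDCs (4 of 10 held, none at 0) were higher together with Csf3, at 1394.5 with LPS and 1929.5 with IL-10 then LPS, and so was each of the 4. Their sum was 2493.5 untreated and 3825.5 with IL-10, the groups in which Csf3 was listed at 0, and their part in the sDC rise was not tested. With IL-10 alone, Csf3 in neutrophils went from 2.5 to 0.5, a call at levels too low to read that was lost with a pseudocount of 10 (log2 change -0.25).

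Lif was raised by LPS in macrophages, sDCs and neutrophils but not in mast cells or eosinophils. In macrophages it was at 26.0 untreated, 17.5 with IL-10, 1001.5 with LPS and 155.0 with IL-10 then LPS. The LPS level was 38.5 times the untreated level, a log2 change of 5.21. The stromal marker sum of the macrophages was 16553.5 untreated and 20373.5 with LPS, and its part in their Csf2, Csf3 and Lif levels was not tested. sDCs were at 110.0, 108.5, 1127 and 322.5 in the same order, 10.2-fold with LPS (log2 change 3.35). Neutrophils were at 10.5, 20.5, 92.0 and 20.5, 8.76-fold with LPS (log2 change 3.02). The sum of the macrophage markers in the neutrophil groups (5 of 10 held) moved in the same direction, at 9227, 10107, 18868 and 11362. It was led by Emr1, at 4346, 4305.5, 14667.5 and 5157.5. Marco was at 0, 0, 241 and 14.5, and Cd68 at 2788, 3319, 3140 and 4387.5. Mrc1 and Fn1 were lowest with LPS, at 124.5 and 695. Emr1 was not particular to macrophages, as eosinophils had it at 14338.5 untreated and 22514.5 with LPS. The part of the macrophage markers in the Csf2, Csf3 and Lif levels of neutrophils was not tested. In macrophages, sDCs and neutrophils, the LPS group had the highest Lif, and the group with IL-10 then LPS was at or above the IL-10 group. Mast cells held far more Lif than the others without treatment, at 3925, and were at 1643 with IL-10, 4511 with LPS and 1776.5 with IL-10 then LPS. Here the levels were ordered by IL-10 and not by LPS: the groups with IL-10 were at 1643 and 1776.5, and those without it at 3925 and 4511. The log2 change with LPS in mast cells was 0.20. Eosinophils were at 107.0 untreated and 94.5 with LPS, a log2 change of -0.18.

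IL-10 before LPS lowered Lif in 4 of the 4 cell types. It was at 39.4% of the LPS level in mast cells (log2 change -1.34), 28.6% in sDCs (-1.80), 22.3% in neutrophils (-2.11) and 15.5% in macrophages (-2.68). The sDC change was the 22nd lowest of the 6050 genes kept. IL-10 alone lowered Lif in mast cells, to 41.9% of the untreated level (log2 change -1.26), and in no other cell type was the change called: it was -0.55 in macrophages, 0.90 in neutrophils at levels of 10.5 and 20.5, and -0.02 in sDCs. For each mast cell group, 1 of the 2 libraries was of another preparation kit than its partner by the study's library list, and the means do not separate them. Stromal markers summed to at most 11 in mast cells, with 3 to 5 of 6 at 0.

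**Figure D2:**
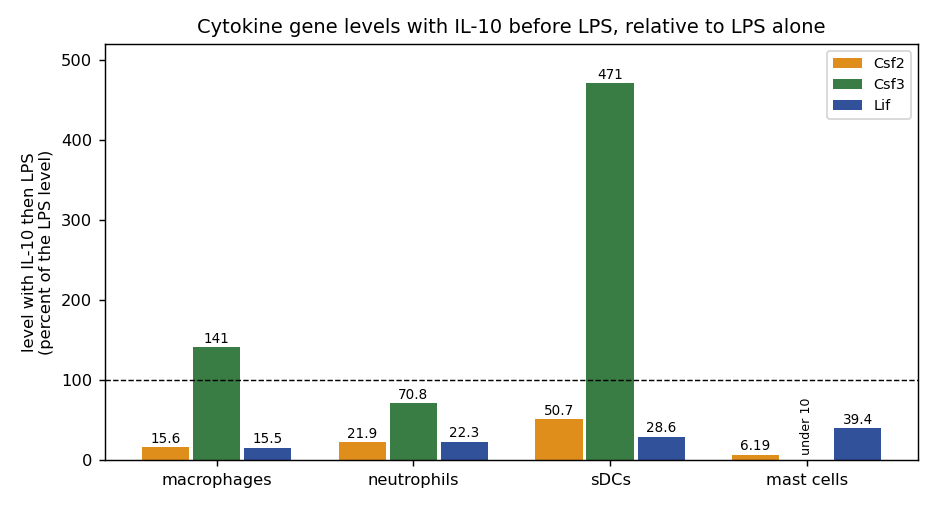
Level with IL-10 then LPS as a percent of the level with LPS alone (vertical axis) for Csf2, Csf3 and Lif in the 4 cell types that received IL-10; each bar is a ratio of 2 group means with no error, and the dashed line marks 100%. All bars of Csf2 and Lif ended at 50.7% or less, whereas those of Csf3 were at 70.8%, 141% and 471%; Csf3 in mast cells was under the minimum of 10.

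Over the 3 genes, 10 of 12 combinations of gene and cell type kept were raised by LPS. Of these 10, 6 were kept only through groups given LPS, so that the minimum itself favoured a rise, and nothing is read from the count of 10; the other 4 are Csf2 in sDCs and Lif in macrophages, neutrophils and sDCs. Among all genes, 366 of 2232 raised combinations were kept in that way. Of all genes kept, LPS raised 12.8% in macrophages, 9.04% in sDCs, 8.71% in neutrophils, 4.76% in mast cells and 2.16% in eosinophils. With IL-10 before LPS, 7 of 11 combinations were lowered against LPS, 1 was raised and 3 were not called. Among the 7 are Csf2 in neutrophils and in mast cells, which reached 10 only in the LPS group, the reference here. The minimum itself favoured a fall there, so nothing is read from the count of 7. Of all genes kept, 4.66% were lowered in this comparison in mast cells, 4.62% in macrophages, 3.88% in neutrophils and 2.08% in sDCs, and 3.18% were raised in macrophages, 3.06% in neutrophils, 2.88% in mast cells and 2.61% in sDCs. Among the genes that LPS had raised, the lowered share was 31.1% of 273 in mast cells, 29.7% of 518 in neutrophils, 18.1% of 774 in macrophages and 12.1% of 547 in sDCs. Both comparisons use the same LPS group, so a high LPS value by itself gives a rise in the first and a fall in the second. With IL-10 alone, 3 of 11 combinations were lowered (Csf2 and Lif in mast cells, Csf3 in neutrophils), and of all genes 2.79% were lowered in mast cells, 2.18% in macrophages, 0.941% in neutrophils and 0.843% in sDCs. Of these 3, only Lif had a level above 10.

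**Figure D3:**
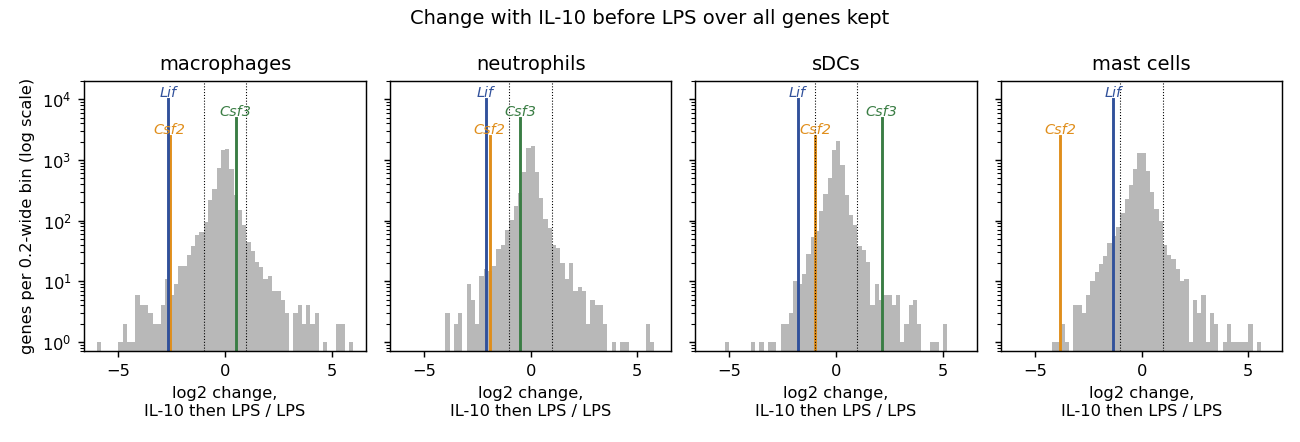
Number of genes (log axis) by log2 change between IL-10 then LPS and LPS alone, in bins 0.2 wide, for all genes kept in each of 4 cell types; coloured lines mark Csf2, Csf3 and Lif and dotted lines a 2-fold change. Lif lay left of the lower dotted line in each panel, at -2.68, -2.11, -1.80 and -1.34, and Csf2 in mast cells lay at -3.81.

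The Lif level was split differently between its 2 coding transcripts in different cells. In macrophages with LPS, ENSMUST00000066283, from the upstream start, made up 96.5% of the Lif level (966.5 of 1001.5). In sDCs with LPS it made up 19.2%, and ENSMUST00000040750, from the downstream start, made up 80.3% (905 of 1127). In mast cells the upstream transcript ranged from 30.2% to 45.3% over the 4 groups, and in eosinophils it was 68.7% and 66.1%. The upstream transcript alone was 21, 5, 966.5 and 92 in macrophages untreated, with IL-10, with LPS and with IL-10 then LPS, and the downstream one was 5, 12.5, 29 and 63. In macrophages the fall with IL-10 before LPS lay in the upstream transcript (log2 change -3.38), while the downstream transcript went the other way at a much lower level (1.09). In sDCs both were lower, with log2 changes of -2.62 and -1.65, and in mast cells both were lower, at -1.26 and -1.41. In neutrophils they were at 64 and 28 with LPS and at 18 and 2.5 with IL-10 then LPS. The non-coding transcript ENSMUST00000154927 was at 20.0 to 58.5 in mast cells and at most 6.0 elsewhere.

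This split is uncertain, because 3773 exon bases are shared by both coding transcripts. The upstream one has 253 exon bases of its own, and ENSMUST00000040750 differs from it by 25 bases, all of which lie in an exon of the non-coding transcript. The 250 bases before the downstream start, chr11:4166848-4167097 (NCBIM37, plus strand), are printed for comparison with the upstream window:
Lif downstream: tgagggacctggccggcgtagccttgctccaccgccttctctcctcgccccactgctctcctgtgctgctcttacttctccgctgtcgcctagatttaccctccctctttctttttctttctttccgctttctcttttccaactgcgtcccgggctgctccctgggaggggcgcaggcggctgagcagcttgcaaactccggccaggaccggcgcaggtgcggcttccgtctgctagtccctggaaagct
None of the 5 motifs had a match in them, which says only that these letters are not in this window. The non-coding transcript ENSMUST00000154927 starts at 4166799, so the window lies inside that transcript and is not read as a promoter. The G and C content was 61.6% with 16 CpG, against 63.6% with 6 CpG in the window of the upstream start.

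**Figure D4:**
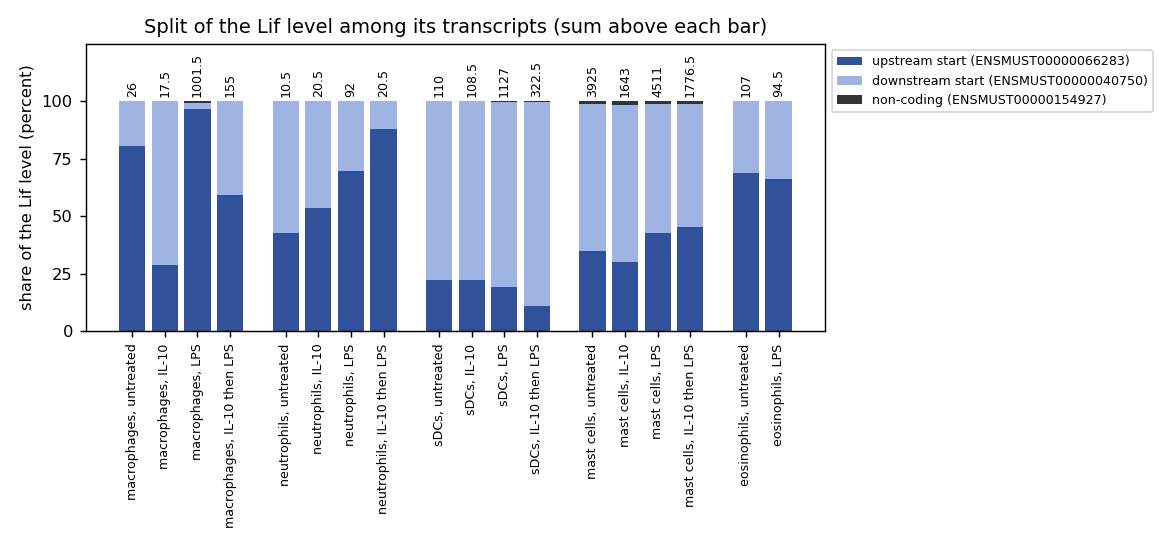
Share of the Lif level (percent) assigned to each of its 3 transcripts in the 18 groups, with the summed Lif level written above each bar. The upstream share was highest in macrophages with LPS, at 96.5%, and lowest in sDCs with IL-10 then LPS, at 10.7%.

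A list of receptors for these and related cytokines was held for 4 of 13 genes. Of the products of the members, only GM-CSF had receptor chains among them, and those of G-CSF and LIF were not held. The GM-CSF receptor pairs the ligand-binding chain Csf2ra with the signalling chain Csf2rb, which IL-3 and IL-5 receptors share. Csf2rb2 is its near-identical mouse copy for IL-3, so the authors' counting may split reads between them and their sum was used. In untreated cells the sum was 211441 in mast cells, 174926 in eosinophils, 64112.5 in sDCs, 32998 in neutrophils and 18255.5 in macrophages. In sDCs it was 8838.5 with LPS, a log2 change of -2.86, and 10829 with IL-10 then LPS. Csf2ra in sDCs moved less, from 5717.5 to 4499. In neutrophils the sum was 57907 with IL-10, 25518.5 with LPS and 58843.5 with IL-10 then LPS. The log2 change with IL-10 before LPS was 1.21 there, with Csf2 itself at 3.5, and these cells had been given GM-CSF overnight. In macrophages, mast cells and eosinophils no change of the sum reached 2-fold.

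**Figure D5:**
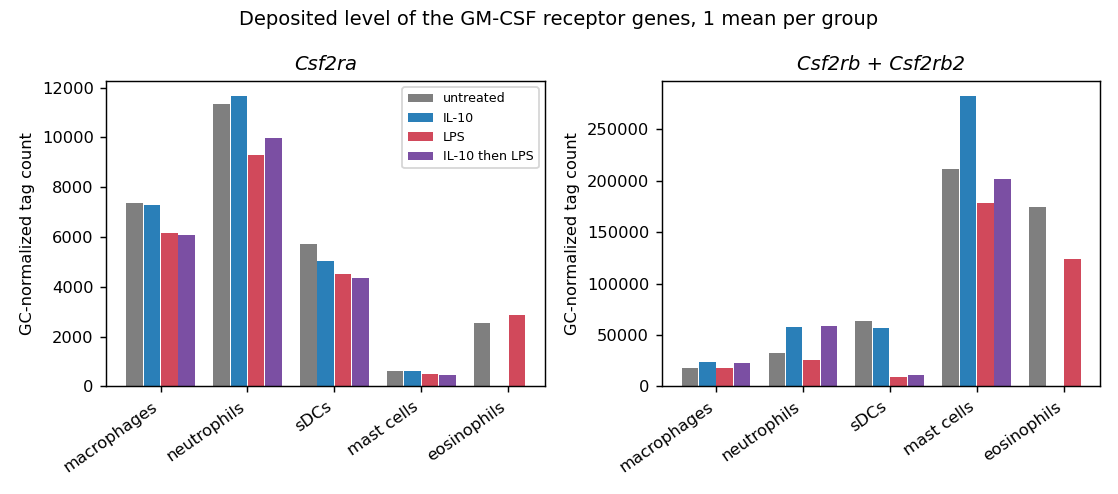
Deposited GC-normalized tag count (linear axes, different scales) of Csf2ra and of Csf2rb plus Csf2rb2 in the 18 groups; each bar is 1 group mean with no error. In sDCs the summed level went from 64112.5 untreated to 8838.5 with LPS, and in neutrophils both groups with IL-10 stood above both without it.

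The other ligands of the IL-6 and colony-stimulating families were held for 7 of 14 genes, and LPS raised 5 of the 7 kept in macrophages, 3 of 7 in sDCs, 4 of 5 in neutrophils, 2 of 5 in mast cells and none of the 5 kept in eosinophils. The shares of all genes were 12.8%, 9.04%, 8.71%, 4.76% and 2.16% in the same order. The list's median log2 change was 1.29 in macrophages, 0.72 in sDCs and 1.54 in neutrophils, against -0.15, -0.14 and -0.03 over all genes. In mast cells it was -0.08, as over all genes, and in eosinophils 0.05, against -0.02. Il27, a subunit of the cytokine IL-27, went from 14.0 to 5752.5 in macrophages with LPS and to 2087.5 with IL-10 then LPS, and in sDCs it was at 1405 and 1434.5 in the last 2 groups. Ebi3, the partner subunit of Il27, was at 4975 and 4706 in those sDC groups. Csf1, the macrophage growth factor, was at 291.0 untreated, 3462.5 with LPS and 1826.5 with IL-10 then LPS in sDCs. Osm encodes oncostatin M, the ligand most closely related to Lif, and lies 16531 bases from it. In mast cells Osm was at 1065.5 untreated, 2166.5 with IL-10, 1007.5 with LPS and 3338.5 with IL-10 then LPS, higher in both groups with IL-10, where Lif was lower. In macrophages both genes were lower with IL-10 before LPS, Osm at 398.5 and then 190.0.

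Among the transducers, with 5 of 11 held, Jak3 was called up with IL-10 before LPS in 4 of 4 cell types. The log2 changes were 2.19 in mast cells, 1.93 in neutrophils, 1.29 in sDCs and 1.04 in macrophages. Of all genes, 2.93% were called up in this comparison over the 4 cell types. Jak3 was also higher with IL-10 alone, from 1477.5 to 5817 in mast cells and from 272 to 1194 in neutrophils. With IL-10 alone Jak3 went from 1229 to 2695.5 in sDCs and from 727.5 to 1409.5 in macrophages, the last under 2-fold. It encodes the kinase of the common gamma chain receptors. Of the feedback and target genes, with 4 of 8 held, Cish, a target of STAT5 that restrains GM-CSF signalling, was at 43.5 untreated, 644.5 with LPS and 276.0 with IL-10 then LPS in macrophages. With LPS, Pim1 was raised in macrophages and sDCs and Junb in macrophages and neutrophils. With IL-10 alone, Junb was raised in mast cells (3166.5 to 7007).

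Factors of AU-rich mRNA were held for 4 of 14 genes. Mapkapk2, the kinase that holds back the decay factor tristetraprolin, was at 24395 in macrophages with LPS and 27752 in neutrophils with LPS, against 4076 and 7548 untreated. In neither cell type did it change by 2-fold with IL-10 before LPS. Zc3h12c, a nuclease of the regnase family, was at 2336 with LPS and 1052 with IL-10 then LPS in neutrophils. Arid5a, which stabilizes Il6 mRNA, was at 282.5 with LPS and 1601 with IL-10 then LPS in mast cells, and at 284.5 untreated and 1230.5 with IL-10 alone. Across all lists, 24 of 60 genes were held. Of 31 combinations of gene and cell type that LPS raised, 3 were kept only through groups given LPS. LPS raised 12 of 24 in macrophages, 6 of 24 in sDCs, 9 of 22 in neutrophils, 3 of 22 in mast cells and, in eosinophils, 1 of 22, and it lowered 2 in sDCs, 1 in mast cells and none in the other 3. Of all genes, LPS lowered 11.5% in sDCs and 5.46% in mast cells, so the 2 of 24 and 1 of 22 are near the share of all genes, and 14.8% in macrophages, 7.9% in neutrophils and 0.702% in eosinophils. With IL-10 before LPS, the lists had 1 gene raised and 3 lowered in macrophages and 2 raised in sDCs. In neutrophils 3 were raised and 2 lowered, and in mast cells 3 were raised and 3 lowered. Of all genes, 3.18% were raised and 4.62% lowered in macrophages, 2.61% and 2.08% in sDCs, 3.06% and 3.88% in neutrophils and 2.88% and 4.66% in mast cells.

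The genes whose levels over the 18 groups were most like each member were ranked by Pearson's r on log2(value + 1) among 6506 other genes. The groups share cell types and controls, so r is a description. Closest to Csf2 were Psd (r = 0.92), Clec2d (0.92), Nfkb2 (0.89), Icam1 (0.89) and Trim34a (0.89). Nfkb2, an NF-kB subunit, was at 1696 untreated and 12397 with LPS in macrophages and already at 11598.5 in untreated sDCs, where Csf2 was also present. Closest to Csf3 were Ikbke (0.94), Ets2 (0.92), Ptx3 (0.91), Mapkapk2 (0.91) and Fbxo30 (0.91). Ptx3, a secreted pattern recognition protein, was at 678.0 in macrophages and 406.0 in neutrophils with LPS and at 37.0 in sDCs with LPS. Closest to Lif was Socs7 (0.94), followed by Zbtb5 (0.93) and Etnk1 (0.92). The members were less like each other, with r = 0.49 for Csf2 and Lif, 0.31 for Csf2 and Csf3 and -0.15 for Csf3 and Lif.

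Of the protein-coding neighbours within 200 kb, 3 of 6 were held for Csf2, 11 of 15 for Csf3 and 8 of 10 for Lif. With LPS, 5 of the 98 combinations of neighbour and cell type kept were raised and 7 lowered, against 7.6% and 8.24% of all genes. With IL-10 before LPS, 3 of 79 were raised and 3 lowered, against 2.93% and 3.8%, and with IL-10 alone 1 was raised and 1 lowered, against 1.87% and 1.68%. These shares are near those of all genes. Next to Csf2, P4ha2, at 115606 bases, was called up with LPS in macrophages (138.0 to 299.5) and, at low levels, in sDCs with LPS (5.0 to 12.0) and with IL-10 before LPS (to 26.5). Pdlim4, at 178257 bases, was called up in sDCs with IL-10 before LPS (423.5 to 1071.5) and down in mast cells with LPS (11.5 to 4.5). Next to Csf3, Nr1d1, at 64303 bases, was called up in macrophages with LPS (96.0 to 207.0) and down in mast cells (61.5 to 13.0). Thra was called down in mast cells with LPS (663.0 to 304.0) and with IL-10 (to 260.5), Rapgefl1 in neutrophils with LPS (175.0 to 77.0) and Zpbp2 in mast cells with LPS (9.5 to 2.0). Next to Lif, beside Osm, Mtfp1 was called down in macrophages with LPS (92.0 to 22.5) and again with IL-10 before LPS (to 8.0). Gatsl3 was called down in sDCs with LPS (326.0 to 142.0), and Sec14l2 in neutrophils with IL-10 before LPS (32.0 to 15.5).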

How the data were processed

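RNA was sequenced from 36 libraries in 18 groups of 2; 1 further sample of the series, of T cells, was not used here. The authors aligned reads to Ensembl transcripts (mm9) with RSEM 1.2.1 and Bowtie 0.12.9, normalized tag counts for GC content with EDASeq and averaged replicates. The deposited values have the unit score: every column has the same maximum, 185338, and every value is a multiple of 0.5. The copy held 17015 complete lines and 1 broken line; 22 lines (0.129%) without a gene name were left out. Means alone allow no test and no counting interval.

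Python 3.11.15, numpy 2.4.6, pandas 2.3.3 and matplotlib 3.10.9 were used. Genes were summed over transcripts, kept at a group value of at least 10, and called at 2-fold on log2(value + 1). The procedure was tested on simulated data with planted changes larger than 2-fold in genes well above the minimum. That test does not cover calls near the threshold or at low levels. GENCODE vM1 held 16791 of 16993 transcripts (98.8%). Named genes are the 3 members and, of the lists, neighbours within 200 kb and the 5 most similar genes, those called in most comparisons, up to 30; Csf2ra, Csf2rb2, Fbxo30, Socs7, Zbtb5, 5 further neighbours (Thra, Rapgefl1, Zpbp2, Gatsl3 and Sec14l2) and the markers named singly were added after their values were seen. The members and lists were chosen with earlier results of these data known. Alternatives were other pseudocounts, minimums, thresholds, size factors and single transcripts. The window before the annotated Csf2 start was added after the data were seen. A gene that the naming rule covers is not reported here.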

Additional observations from a re-analysis of the deposited data

How the results depend on the processing

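Of 264 alternative values for the 34 combinations of gene, cell type and comparison, 244 kept their direction and side of the 2-fold threshold, 11 lost the call, 7 gained it and 2 changed sign. The 2 that changed sign are Lif in macrophages by ENSMUST00000040750 alone, at 1.17 with IL-10 and 1.09 with IL-10 then LPS against LPS; the cause was not tested. By ENSMUST00000066283 alone, Lif with IL-10 was called at -1.87 in macrophages and 1.13 in neutrophils, and by ENSMUST00000154927 alone it was -0.71 in mast cells. A pseudocount of 10 ended the calls of Csf2 (-0.95 with IL-10 then LPS against LPS) and Csf3 (-0.25 with IL-10) in neutrophils and of Csf2 with IL-10 in mast cells (-0.26), leaving 1 gene lowered by IL-10; one of 0.1 called Csf2 with IL-10 in neutrophils (2.59), 1 gene raised. With rescaled columns (size factors 0.898 to 1.09) Csf2 in sDCs with IL-10 then LPS against LPS was called at -1.02. At 1.5-fold, calls were gained by Csf2 (0.58) and Lif (0.90) in neutrophils with IL-10, 2 genes raised, and by Csf2 in sDCs with IL-10 then LPS (-0.97); list genes then gave 78 calls up and 23 down. At 4-fold, calls were lost by Csf2 in sDCs with LPS (1.46), Csf3 in neutrophils (-1.22), Csf2 (-1.58) and Lif (-1.26) in mast cells with IL-10, leaving 0 lowered, and, with IL-10 then LPS, Csf2 in neutrophils (-1.92) and Lif in sDCs (-1.80) and mast cells (-1.34), leaving 4 lowered. By Spearman's rho, 2, 2 and 3 of the 5 most similar genes were shared for Csf2, Csf3 and Lif. No minimum and a minimum of 50 do not enter a log2 change, so neither could change the call of a combination kept. Their values repeat the main ones, are among the 244 and show nothing about the calls. Combinations under the minimum of 10, such as Csf2 in eosinophils, were not added. No paired analysis was possible because the columns hold means over replicates, and for the same reason no replicate could be left out.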
